A study of Mus musculus with 6 samples.

Results

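Injured or inflamed colonic epithelium is known to switch on a set of genes that is also active in the fetal gut, and the array signals of 8 genes of this kind were examined in colonic epithelium of mice lacking miR-31. The genes were Ly6a, Clu, Anxa1, Anxa3, Plaur, Sprr1a, Spp1 and Itga2. They were found as the non-control probes whose RefSeq accession maps to these symbols, which gave 10 probes on 19 spots of each array, out of 56605 probes under 45356 gene or accession names. The samples were 3 miR-31 knockout and 3 wildtype male mice, with 1 one-colour Agilent array per mouse. Per the series' design note the epithelium was separated by flow. The sources used here do not give the gate, nor the strain, age or making of the knockout. All 6 arrays lay on 1 slide, with the knockout arrays in 1 row and the wildtype arrays in the other, so slide row and genotype cannot be told apart.

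During repair, crypts lose their Lgr5-positive stem cells, and surviving cells pass through a fetal-like state before the stem cells return. This state is known to depend on YAP and on inflammatory signals, and its genes encode surface proteins, secreted proteins, membrane-binding annexins and a cornified envelope protein. miR-31 is a microRNA of intestinal crypts that acts on messenger RNAs through the seed at its 5′ end. The mature forms that the knockout mice lack are shown with the seed, bases 2 to 8, in capitals. They come from RefSeq on GRCm38.p6, where the gene lies on the minus strand of chromosome 4.
mmu-miR-31-5p: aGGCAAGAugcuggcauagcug
mmu-miR-31-3p: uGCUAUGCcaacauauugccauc
The 5p form spans chr4:88910614-88910635 and the 3p form chr4:88910577-88910599. None of the other mature mouse miRNAs in the same RefSeq table shared either seed (0 for each form).

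The promoter windows of 5 of the 8 genes were matched in RefSeq, and the 250 bases before the annotated start are shown for the 3 genes whose window held one of the motifs searched. The motifs were TGANTCA, the AP-1 motif, and GGAATG, the TEAD motif bound with YAP, each on both strands, and the letters of a match are in capitals. AP-1 matches were present in 6.75% and TEAD matches in 12.6% of all 32851 windows of this length.
Sprr1a promoter: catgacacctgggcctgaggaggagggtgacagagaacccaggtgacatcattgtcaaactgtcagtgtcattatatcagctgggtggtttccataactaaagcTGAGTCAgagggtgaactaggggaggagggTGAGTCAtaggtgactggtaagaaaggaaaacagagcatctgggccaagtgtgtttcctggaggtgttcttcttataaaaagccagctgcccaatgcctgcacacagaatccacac
Plaur promoter: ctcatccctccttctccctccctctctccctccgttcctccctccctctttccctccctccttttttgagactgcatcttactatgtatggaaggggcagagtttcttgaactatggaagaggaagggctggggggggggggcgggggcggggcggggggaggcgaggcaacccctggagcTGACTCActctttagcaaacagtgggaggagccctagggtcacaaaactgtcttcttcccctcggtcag
Anxa1 promoter: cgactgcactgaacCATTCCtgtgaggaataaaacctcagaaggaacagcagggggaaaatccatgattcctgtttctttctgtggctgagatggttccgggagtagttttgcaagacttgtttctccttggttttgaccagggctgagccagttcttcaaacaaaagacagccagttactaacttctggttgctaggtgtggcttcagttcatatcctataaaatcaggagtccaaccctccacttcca
These are chr3:92485882-92486131 on the minus strand, chr7:24462233-24462482 on the plus strand and chr19:20390672-20390921 on the minus strand of GRCm38.p6. The Sprr1a window held 2 AP-1 matches, with first bases at -146 and -116 from the start, and the Plaur window held 1, at -69. The Anxa1 window held 1 TEAD match, at -236. The windows of Spp1 and Itga2 held neither motif. A match of letters is a description of the window and not a site of binding.

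None of the 8 genes was called different between miR-31 knockout and wildtype epithelium in the test across all features. Of the 8, 6 could be tested and 0 passed an adjusted p under 0.05 (limma, Benjamini-Hochberg over 27916 features), against 0.208% of all features (0.147% higher and 0.0609% lower in knockout epithelium), and 0 of the 6 had an unadjusted p under 0.05, against 10.7% of all features. Clu, Plaur and Sprr1a had a positive log2 change (knockout minus wildtype) and Anxa1, Anxa3 and Itga2 a negative one. Their median log2 change was 0.16, against -0.06 over all tested features. Adjusted p-values lay between 0.576 and 0.984. Log2 changes are knockout minus wildtype with the SE from limma, over 3 knockout and 3 wildtype arrays unless another n is given. None of the 6 had groups that did not overlap (0 of 6), against 18.0% of all features. Ly6a was not tested because the scanner software marked its only spot as non-uniform on 3 of the 6 arrays, and Spp1 was not tested because it was well above background on only 1 array. The members differed in another way, which was how much they varied from array to array within a genotype. With 1 array per mouse, differences between mice and technical differences between arrays cannot be told apart.

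**Figure D1:**
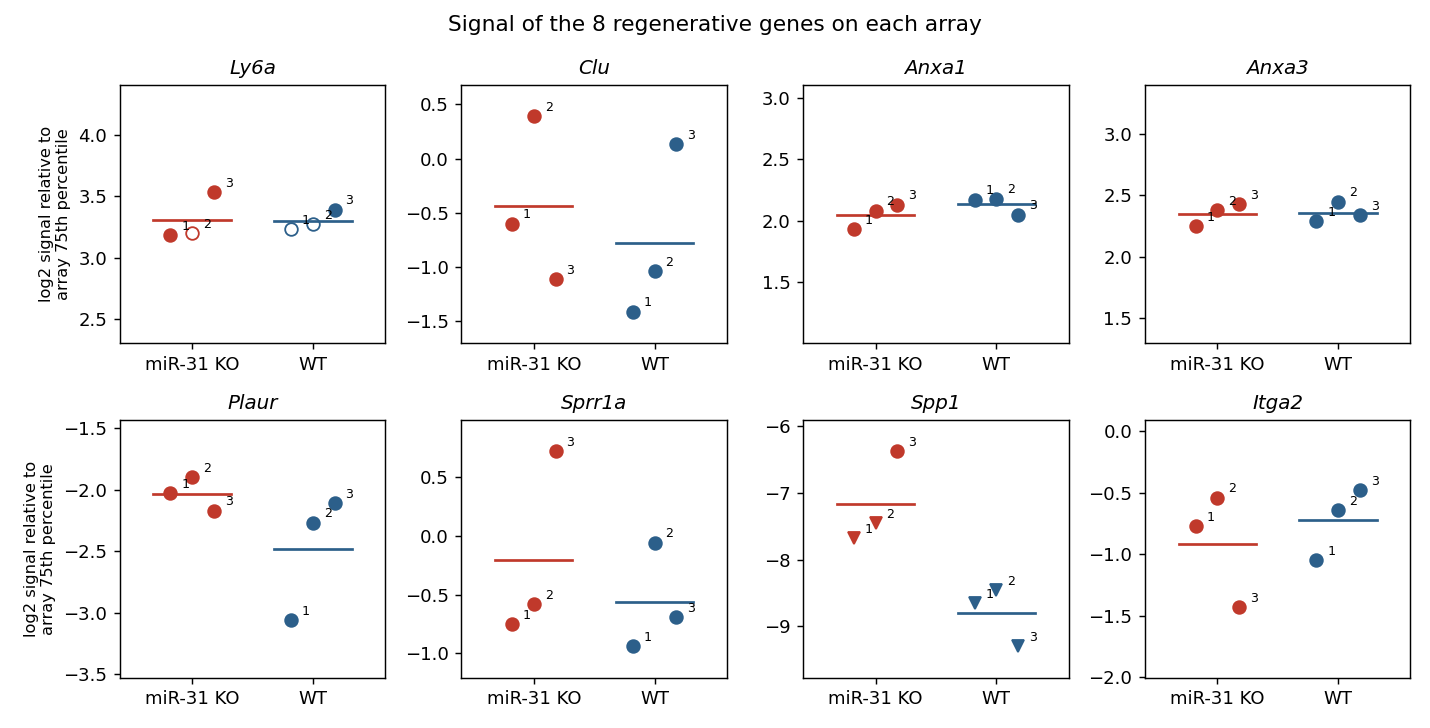
Log2 signal of the 8 genes on each array relative to the array's 75th percentile (vertical axis, with its own range in each panel), for 3 miR-31 KO arrays (red, left) and 3 WT arrays (blue, right), with array numbers beside the points and a bar at each group's mean. Open points are spots marked as non-uniform and triangles are signals not well above background, and Anxa1 is plotted with all spots kept. Clu and Sprr1a are spread widely within both groups, whereas Anxa1 and Anxa3 differ little between any arrays.

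Across the whole array, 66.6% to 75.6% of probes exceeded background clearly by the scanner software's test, and Pearson's r across probes was 0.987 to 0.991 among knockout arrays, 0.989 to 0.991 among wildtype arrays and 0.983 to 0.99 between the groups. Levels are given below as log2 of the processed signal minus the array's 75th percentile, so that 0 is the 75th percentile itself. The epithelial markers Epcam, Krt8, Krt18, Krt19, Krt20, Cdh1, Vil1 and Cdx2 were well above background on every array, and their summed level (the sum of linear signals, each divided by the array's 75th percentile) ranged from 91 to 99.9 in knockout and from 94.6 to 110 in wildtype epithelium. Markers of other cells were present too, and those that bear on a member are given beside it. In bulk tissue, fewer cells of a type and less RNA per cell cannot be told apart.

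Ly6a encodes Sca-1, a surface protein held by a lipid anchor, which marks regenerating colonic epithelium and responds to interferon. Its probe was bright on every array. With the marked spots kept, Ly6a had log2 levels of 3.18, 3.2 and 3.53 in knockout replicates 1 to 3, against 3.23, 3.27 and 3.39 in wildtype replicates 1 to 3. Knockout replicate 3 was the highest and the groups overlapped. The log2 change was 0.01 ± 0.14 (SE, adjusted p = 0.994), with a 95% interval of -0.33 to 0.34. The unmarked spots alone, on knockout replicates 1 and 3 and wildtype replicate 3, gave a log2 change of -0.04 ± 0.26 (adjusted p = 0.979). That fit holds a single wildtype array, so its spread comes from the knockout arrays and from the variance that limma shares between features.

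Interferon-response genes were high on the arrays on which Ly6a was highest. Relative to the mean of the 6 arrays, the 20 genes of an interferon list averaged log2 deviations of 0.33, 0.35 and 0.82 in knockout replicates 1 to 3, and of -0.87, -1.35 and 0.72 in wildtype replicates 1 to 3. Ly6a deviated by -0.12, -0.1 and 0.23 in knockout epithelium and by -0.07, -0.03 and 0.09 in wildtype epithelium. Thus knockout replicate 3 and wildtype replicate 3 ranked highest for both, while the list varied far more than Ly6a. The other arrays did not follow the same order. On knockout replicates 1 and 2 the list lay above its mean, but Ly6a was lower there than on any wildtype array. The summed level of the list ranged from 54.8 to 72 in knockout and from 26.1 to 70.4 in wildtype epithelium, with all 20 genes well above background on at least 1 array. Its part in the level of Ly6a was not tested. Of its 15 tested genes 0 passed the test, 14 had a positive log2 change and the median was 0.83, with Oas3 at 1.91 ± 0.72, Cxcl9 at 1.33 ± 0.52, Oas1a at 0.27 ± 0.12 and Ifi27l2a at 2.66 ± 1.14.

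Other genes of the Ly6 family also gave no call. Of 15 listed genes 10 were tested, 0 passed, and 4 had a positive and 6 a negative log2 change (median -0.06). Ly6c1, a close relative of Ly6a, had log2 levels of 3.1, 3.21 and 3.61 in knockout and 3.23, 3.34 and 3.41 in wildtype epithelium, the same order of arrays as for Ly6a in either group. Relatives in this family are similar in sequence, and signal shared between their probes was not tested. Ly6e, another interferon-responsive member, was not in the tested set, with levels of 3.28, 3.42 and 3.37 in knockout and 3.2, 2.96 and 3.42 in wildtype epithelium. The smallest p-values belonged to Ly6g6c (log2 change 0.63 ± 0.17, adjusted p = 0.298), Ly6g6d (-0.25 ± 0.14), Ly6k (1.17 ± 0.74) and Ly6i (0.31 ± 0.29). Groups did not overlap for Ly6g6c. Ly6k and Ly6i were well above background on only 2 arrays of each group, so their sizes rest partly on dim signals.

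Plaur encodes the receptor of urokinase, which focuses plasminogen activation at the cell surface, and it had the smallest p-value of the 6 tested genes. Its log2 levels were -2.03, -1.9 and -2.17 in knockout replicates 1 to 3, against -3.06, -2.27 and -2.11 in wildtype replicates 1 to 3. The knockout arrays lay close together, and 1 wildtype array lay well below the other two, so that the groups overlapped only through wildtype replicate 3. The log2 change was 0.45 ± 0.25 (SE, adjusted p = 0.576), or 1.36-fold with a 95% interval of 0.904-fold to 2.06-fold. Without wildtype replicate 1 the log2 change was 0.16.

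The ligands and inhibitors around Plaur were mostly dim. Plau, which encodes urokinase itself, was not well above background on any array, nor were Serpinb2, Vtn, Mmp10 and Mmp13. Of 13 listed genes of plasminogen activation and of matrix proteases 8 were tested and 0 passed, with 5 positive and 3 negative log2 changes and a median of 0.4. Serpinf2, the gene of the plasmin inhibitor alpha-2-antiplasmin, had log2 levels of -6.19, -5.32 and -6.01 in knockout and -7.04, -6.96 and -6.72 in wildtype epithelium, with a log2 change of 1.07 ± 0.24 (SE, adjusted p = 0.219). Its groups did not overlap, although it was well above background on only 2 arrays of each group. Mmp7, the gene of matrilysin, had levels of -1.84, -1.38 and -0.35 in knockout against -2.46, -2.88 and -2.34 in wildtype epithelium, a log2 change of 1.37 ± 0.37 (adjusted p = 0.294), also without overlap. Plat, the gene of tissue plasminogen activator, had a log2 change of 0.73 ± 0.28 and Plg, the gene of plasminogen, one of -0.32 ± 0.17. Plat too was well above background on only 2 arrays of each group.

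Itga2 encodes the integrin alpha 2 chain, which pairs with the beta 1 chain to form a collagen receptor. Its log2 levels were -0.77, -0.54 and -1.43 in knockout replicates 1 to 3, against -1.05, -0.64 and -0.48 in wildtype replicates 1 to 3. Knockout replicate 3 was the lowest array and the groups overlapped. Its log2 change was -0.19 ± 0.26 (SE, adjusted p = 0.835), with a 95% interval of -0.81 to 0.43. Without knockout replicate 3 it was 0.07.

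Clu encodes clusterin, a secreted chaperone that marks the rare cells from which injured crypts are rebuilt, and it varied most between arrays among the tested genes. Its log2 levels were -0.6, 0.39 and -1.11 in knockout replicates 1 to 3, against -1.41, -1.04 and 0.13 in wildtype replicates 1 to 3. The highest and the lowest array differed 3.46-fold, and each genotype held 1 high array, knockout replicate 2 and wildtype replicate 3. The means were -0.44 ± 0.76 in knockout and -0.77 ± 0.8 in wildtype epithelium (SD, n = 3 each). The log2 change was 0.33 ± 0.49 (SE, adjusted p = 0.854), and its 95% interval, 0.559-fold to 2.83-fold, leaves room for a change of either sign. It was -0.08 without knockout replicate 2, 0.01 without wildtype replicate 1 and 0.78 without wildtype replicate 3.

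For Clu the difference changed sign between subsets of the arrays. Knockout minus wildtype was 0.81 in slide column 1 and 1.42 in slide column 2, the columns that held 1 array of each genotype. By the animal numbers in the sample titles, knockout replicates 1 and 2 and wildtype replicates 1 and 2 have neighbouring numbers, and the difference among those 4 mice was 1.12. Knockout replicate 3 and wildtype replicate 3 remained, and they share neither a slide column nor neighbouring numbers. Between this unmatched pair the difference was -1.24. With the slide column as a block, which rests on the arrays of columns 1 and 2, the log2 change was 1.12 ± 0.21 (adjusted p = 0.0923). With the animal number series as a block, which takes the unmatched pair as a series of its own, the log2 change was 0.33 ± 0.52 (limma adjusted p = 0.842). The sign differed between these subsets for the other 6 measured genes too, but not for Spp1, whose signals were mostly not well above background. Among the 4 mice with neighbouring numbers the difference was 0.7 for Plaur, 0.19 for Itga2 and -0.17 for Sprr1a, and between the remaining pair it was -0.05, -0.96 and 1.41 for the same genes in turn. For Ly6a, Anxa1 and Anxa3 it was -0.06, -0.17 and -0.06 among the 4 mice and 0.14, 0.09 and 0.08 between the pair. The labels do not say whether these numbers mark litters or cohorts.

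Receptors that bind clusterin and components of the complement complex that it restrains were listed with it. Of 9 genes 7 were tested and 0 passed, with 3 positive and 4 negative log2 changes and a median of -0.1. Lrp8, a lipoprotein receptor that binds clusterin, had log2 levels of -1.84, -2.8 and -1.36 in knockout against -0.68, -0.6 and -1.75 in wildtype epithelium, with a log2 change of -0.99 ± 0.44 (adjusted p = 0.487). It was lowest on knockout replicate 2, where Clu was highest. C7, a terminal complement component, had a log2 change of 0.5 ± 0.31 and Vldlr one of 0.12 ± 0.13.

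Spp1 encodes osteopontin, a secreted ligand of integrins and CD44 that macrophages also make. It was well above background only on knockout replicate 3, with a log2 level of -6.37. Knockout replicates 1 and 2 read -7.68 and -7.45, and wildtype replicates 1 to 3 read -8.65, -8.46 and -9.3, all of them not well above background and therefore without a measured order. The mean of the knockout arrays, -7.17, lay below the limit that the lowest signals well above background set for wildtype epithelium, -6.9, and no fold is given. Without the filter on dim probes Spp1 had an unadjusted p of 0.00495 and did not pass (limma adjusted p = 0.365), and since it rests on arrays not well above background the fitted difference is not given as a size. The macrophage list had 10 of 10 markers well above background on at least 1 array, including Csf1r, Cd68 and C1qa, and its summed level ranged from 5.78 to 6.02 in knockout and from 5.86 to 6.31 in wildtype epithelium. The sum is carried mostly by Cd14 and Csf1r. Of its 9 tested markers 0 passed, 2 had a positive and 7 a negative log2 change, and 3 had an unadjusted p under 0.05. C1qa was at 0.78 ± 0.3, whereas C1qb was at -0.53 ± 0.13 and C1qc at -1.15 ± 0.44, both without overlap of the groups. C1qc was well above background on only 1 knockout array and on 3 wildtype arrays, so the size of its change rests partly on dim signals. Over the 9 markers well above background on at least 3 arrays, which leaves out Adgre1 and was chosen after seeing the data, the mean log2 deviation was -0.4, -0.04 and 0.18 in knockout replicates 1 to 3 and 0.06, 0.06 and 0.15 in wildtype replicates 1 to 3. Knockout replicate 3, where Spp1 was detected, was thus the highest array for these 9 markers, with wildtype replicate 3 close to it. Over all 10 markers wildtype replicate 1 was the highest, at 0.3, against 0.19 on knockout replicate 3. The summed level was highest on wildtype replicate 3, at 6.31, against 6.02 on knockout replicate 3. The part of macrophage RNA in the signal of Spp1 was not tested.

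Cd44, a receptor of osteopontin, had the smallest p-value among 19 listed integrin chains and other receptors of osteopontin and collagen. Its log2 levels were 0.82, 1.01 and 0.47 in knockout replicates 1 to 3, against -0.08, -0.1 and 0.21 in wildtype replicates 1 to 3. The groups did not overlap, and the log2 change was 0.76 ± 0.17 (SE, adjusted p = 0.238). Itgb1, the partner chain of Itga2, had log2 levels of 1.36, 1.46 and 1.33 in knockout against 1.27, 1.04 and 0.92 in wildtype epithelium, a log2 change of 0.31 ± 0.13 (adjusted p = 0.475). Its groups did not overlap either, although the change is small. For Itga1, the chain of another collagen-binding beta 1 integrin, knockout minus wildtype was -0.59 ± 0.29 on 2 knockout and 3 wildtype arrays, and for Itgb5 it was 0.19 ± 0.11. Of the 16 tested genes of this list 0 passed, 10 had a positive and 6 a negative log2 change, and the median was 0.13.

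Anxa1 and Anxa3 encode annexins, proteins that bind membrane phospholipids in the presence of calcium, and both were bright and steady. Anxa1, whose product also signals through formyl peptide receptors to limit inflammation, was measured by a probe printed on 10 spots of each array. With its marked spots left out, its log2 levels were 1.91, 2.04 and 2.13 in knockout replicates 1 to 3, against 2.15, 2.2 and 2.05 in wildtype replicates 1 to 3. The groups overlapped at knockout replicate 3 and wildtype replicate 3. For Anxa1 the log2 change was -0.11 ± 0.12 (SE, adjusted p = 0.8), with a 95% interval of 0.763-fold to 1.13-fold.

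The repeated spots give the technical spread of a bright probe within an array. Over the 10 spots the SD was 0.06, 0.12 and 0.11 in knockout replicates 1 to 3 and 0.14, 0.09 and 0.11 in wildtype replicates 1 to 3, on the log2 scale with marked spots included. It averaged 0.106, which gives a mean of 10 spots an SE of 0.034 if spots are independent. The SD between the means of the 6 arrays was 0.095, larger than that SE. A second Anxa1 probe, on 1 spot, gave 1.97, 2.1 and 2.19 in knockout against 1.82, 2.07 and 2.02 in wildtype epithelium. It put the knockout mean 0.12 above the wildtype mean, where the first probe put it 0.09 below with all spots kept, and it was marked on 4 arrays and not tested.

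Anxa3 had log2 levels of 2.25, 2.38 and 2.43 in knockout replicates 1 to 3, against 2.29, 2.45 and 2.34 in wildtype replicates 1 to 3. No array differed from another by more than 1.15-fold, the smallest range among the 8 genes. The log2 change was -0.01 ± 0.12 (SE, adjusted p = 0.984), with a 95% interval of 0.819-fold to 1.2-fold. A second probe of Anxa3, marked on 3 arrays and not tested, had levels of 2.11, 2.04 and 1.92 in knockout and 2.24, 2.32 and 2.11 in wildtype epithelium, a difference of -0.2. The value of Anxa3 therefore differs somewhat between probes.

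Of 14 further annexins, S100 partners and formyl peptide receptors 10 were tested and 0 passed, with 4 positive and 6 negative log2 changes and a median of -0.03. For Anxa2 knockout minus wildtype was -0.03 ± 0.16 on 3 knockout and 2 wildtype arrays. Anxa9 had a log2 change of 0.7 ± 0.28, Anxa6 one of 0.35 ± 0.15, Anxa10 one of -0.25 ± 0.18 and Fpr2, a receptor through which annexin A1 acts, had one of -0.15 ± 0.12. Adjusted p-values in this list were 0.445 or higher.

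Sprr1a encodes a small proline-rich protein of the cornified envelope of squamous epithelium that also appears in injured gut and nerve. Its log2 levels were -0.75, -0.58 and 0.72 in knockout replicates 1 to 3, against -0.94, -0.06 and -0.69 in wildtype replicates 1 to 3. A single array, knockout replicate 3, stood above all others, and the lowest array lay 3.15-fold below it. For Sprr1a the log2 change was 0.36 ± 0.42 (SE, adjusted p = 0.808), and without knockout replicate 3 it was -0.1.

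Taken as a mean, squamous markers were highest on that array too, by a smaller margin. Their mean log2 deviation was 0.07, -0.05 and 0.12 in knockout replicates 1 to 3 and -0.11, 0.05 and -0.08 in wildtype replicates 1 to 3. Krt14 had log2 levels of -3.69, -3.27 and -3.04 in knockout against -4.22, -3.93 and -3.48 in wildtype epithelium, and Krt13 was likewise highest on knockout replicate 3. The summed level of the 9 markers ranged from 16.7 to 17.7 in knockout, with replicate 3 the highest, and from 17.8 to 18.2 in wildtype epithelium. Trp63 alone carried nearly all of it, so the sum says little about the other markers. The Trp63 probe read 4.04 to 4.17, above the epithelial marker Krt18 at 3.38 to 3.66. What that probe measures in this epithelium was not tested. Krt4, Trp63 and Lor were instead highest on a wildtype array. On knockout replicate 3 Krt4 read -4.78 and Trp63 4.12, against -4.51 to -4.3 and 4.13 to 4.17 in wildtype epithelium. Krt5, Krt6a and Dsg3 were not well above background on any array. Over the 5 markers well above background on at least 3 arrays, chosen after seeing the data, knockout replicate 3 deviated by 0.22 and wildtype replicate 3 by 0.1. On knockout replicate 3 Sprr1a itself deviated by 1.1. T and cytotoxic cell markers were highest there as well, with a mean deviation of 0.5 and summed levels of 3.03 to 5.1 in knockout and 2.74 to 4.31 in wildtype epithelium. Of 8 such markers 7 were on the array under the listed symbols, 0 of them below background on every array, and the part of squamous or T cell RNA in the level of Sprr1a was not tested. Of 17 other small proline-rich and envelope genes 6 were tested and 0 passed, 1 with a positive and 5 with a negative log2 change (median -0.17). Lor was at -0.39 ± 0.2, Sprr2h at -0.83 ± 0.53, Sprr2g at -0.23 ± 0.16 and Sprr2a2 at 0.06 ± 0.14. The Sprr2 genes are related in sequence, and signal shared between their probes was not tested. Sprr2a2 read 3.26 to 3.62, whereas Sprr2d, Sprr2e, Sprr2f and Sprr2i were not well above background on any array.

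**Figure D2:**
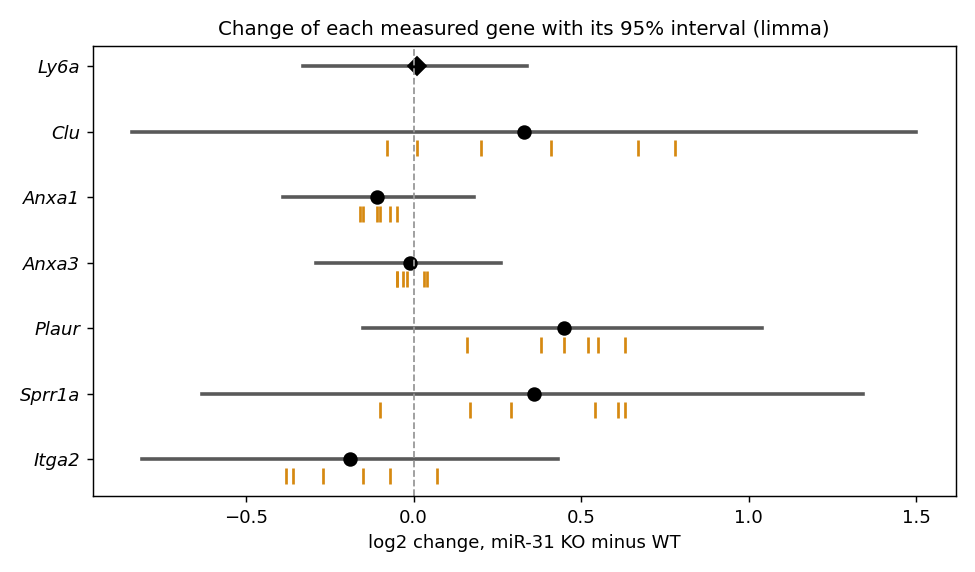
Log2 change, miR-31 KO minus WT (horizontal axis), of 7 of the 8 genes, Spp1 being left out because it was well above background on only 1 array, with the 95% interval from limma (grey lines, n = 3 and 3). The diamond is Ly6a with marked spots kept, circles are the tested genes, and orange ticks give the value with each array left out in turn. The 7 intervals drawn include 0, and they are narrow for Ly6a, Anxa1 and Anxa3 and wide for Clu and Sprr1a.

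The members did not all vary together from array to array. Over the 6 arrays, Clu was highest on knockout replicate 2 and wildtype replicate 3, Sprr1a on knockout replicate 3 and wildtype replicate 2, and Plaur was low on wildtype replicate 1 alone. As a description over 6 arrays that share 1 slide and 2 genotypes, Pearson's r between pairs of the 7 measured genes ranged from -0.6, for Sprr1a with Itga2, to 0.76, for Ly6a with Sprr1a and for Anxa3 with Sprr1a. Clu had an r of 0.72 with Plaur and of 0.72 with Itga2. Of 11018 named features, 72 correlated with Clu at an r above 0.9, 48 with Sprr1a and 58 with Plaur. How many unrelated features would reach such an r over 6 arrays was not computed, so these counts and the features named next are a description only. The features most like Clu were Castor1 (r = 0.9945), Esr1 (0.9832) and Hap1 (0.9828). Those most like Sprr1a were Acoxl (0.9689), Slc35d1 (0.9633) and Slc38a5 (0.9629), and those most like Plaur were Zcchc10 (0.9788), Akap17b (0.9725) and Sptbn4 (0.9724). Of these 9 features 8 had a smaller SD over the arrays than the gene they resemble, Slc38a5 being the exception. Castor1, for example, ran from -5.34 to -4.88.

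**Figure D3:**
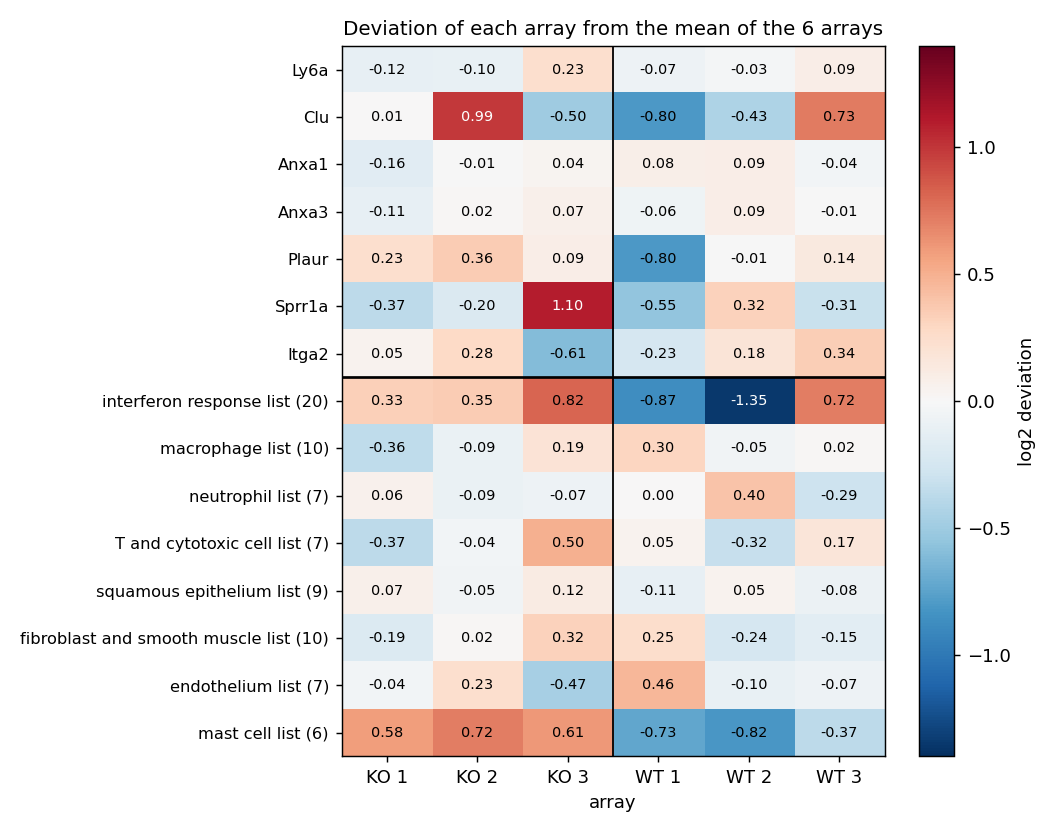
Log2 deviation of each array from the mean of the 6 arrays, for the 7 measured regenerative genes (above the line) and for the mean of gene lists (below it, number of genes on the array in brackets), with KO arrays left and WT arrays right. Clu is high on KO 2 and WT 3 and Sprr1a on KO 3, while the interferon list is low on WT 1 and WT 2 and the mast cell list is higher on all 3 KO arrays. The list means include dim genes, among them 4 endothelium and 3 squamous genes not well above background on any array. Over genes well above background on at least 3 arrays, the endothelium list deviates by 0.15 on WT 1, instead of 0.46.

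Other genes reported in regenerating or fetal-like epithelium were compared as the surrounding programme. Of 32 listed genes 23 were tested and 0 passed, with 13 positive and 10 negative log2 changes and a median of 0.06, close to the -0.06 of all features. At an unadjusted p under 0.05 there were 4, against 10.7% of all features. Besides Cd44 these were Ereg, Cldn4 and Il1rn. Ereg, the gene of the EGF receptor ligand epiregulin, had log2 levels of -3.23, -3.39 and -2.79 in knockout and -4.52, -3.96 and -3.75 in wildtype epithelium, a log2 change of 0.94 ± 0.24 (SE, adjusted p = 0.273). Cldn4, a tight junction claudin gene, had levels of 0.1, 0.54 and 0.69 in knockout against -0.91, -0.64 and 0.08 in wildtype epithelium (log2 change 0.93 ± 0.28, adjusted p = 0.327). Il1rn, the gene of the interleukin 1 receptor antagonist, went the other way, with 0.32, 0.02 and -0.16 in knockout against 0.66, 0.48 and 0.47 in wildtype epithelium (log2 change -0.48 ± 0.16, adjusted p = 0.36). Each of the 4, named for their small p, had groups that did not overlap. Over the list this held for 5 of 23 tested genes, or 21.7%, against 18.0% of all features. Ankrd1 and Ptgs2 were not well above background on any array.

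The stem cell genes that give way during the fetal-like state gave no call either. Of 10 listed crypt base genes 9 were tested and 0 passed, with 3 positive and 6 negative log2 changes and a median of -0.03. Ephb2 had a log2 change of -0.24 ± 0.14, Axin2 one of -0.31 ± 0.22, Slc12a2 one of 0.14 ± 0.12 and Ascl2 one of -0.14 ± 0.2. Adjusted p-values in this list were 0.59 or higher.

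**Figure D4:**
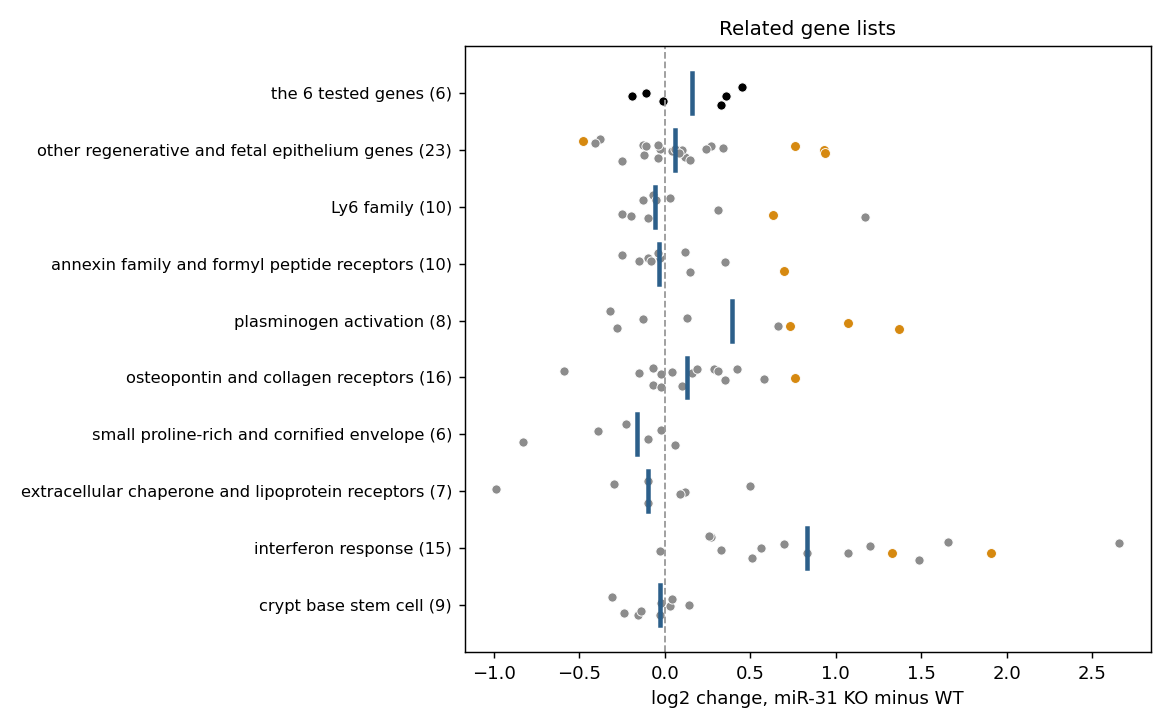
Log2 change, miR-31 KO minus WT (horizontal axis), of the 6 tested regenerative genes (black) and of the tested genes of 9 related lists (grey, number in brackets), with each list's median as a blue bar. Orange points have an unadjusted p under 0.05 and none of the genes shown passed the adjusted test. The medians lie between -0.17 and 0.83, the highest for the interferon list.

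Among markers of cells other than epithelium, the mast cell list lay above its mean on all 3 knockout arrays and below it on all 3 wildtype arrays. Of 6 markers 5 were tested and 1 passed, Mcpt2, a mucosal mast cell protease gene, at 2.1 ± 0.13 on 2 knockout and 3 wildtype arrays (limma adjusted p = 0.00547). The tested markers had 4 positive log2 changes and 1 negative, Tpsb2 at -0.25 ± 0.17. The summed level of the list ranged from 2.49 to 2.85 in knockout and from 1.49 to 2.18 in wildtype epithelium, and none of the 6 was below background on every array. Kit, which was not tested, and Tpsb2 carried 76.6% of that sum. The B and plasma cell list showed the same order less evenly, with mean log2 deviations of 0.02, 0.48 and 0.12 in knockout replicates 1 to 3 and of -0.22, -0.02 and -0.39 in wildtype replicates 1 to 3. Its summed level ranged from 0.196 to 0.289 in knockout and from 0.159 to 0.184 in wildtype epithelium, with all 6 markers well above background on at least 1 array. Of these 0 passed, and Jchain, the gene of the joining chain of polymeric antibodies, was at 1.2 ± 0.24 (adjusted p = 0.191) without overlap of the groups. No tested regenerative gene separated the groups, and the part of mast cell, B cell or plasma cell RNA in their levels was not tested.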

How the data were processed

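Total RNA of colonic epithelium was hybridised to 1 Agilent one-colour array per mouse. The deposited scanner files hold spot intensity, background-subtracted and detrended over the slide by Agilent Feature Extraction 11.5.1.1 per the file headers, whereas the submitters' processing notes name version 10.7. No scaling between arrays had been applied. In the deposited series table, 99.7% of entries matched these linear intensities to within 0.01 on the log2 scale. Its column medians were 259, 228 and 241 for knockout replicates 1 to 3 and 231, 234 and 247 for wildtype replicates 1 to 3.

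Control spots (3671 of 62976) were left out, and log2 intensity was taken relative to each array's 75th percentile (signals of 3005 to 3539). Spots that the software marked (non-uniform, 4.82% to 17.2% per array, population outlier or manual) were dropped, and the spots of a probe were averaged. No spot was saturated (0 on each array). Testing required a signal well above background on 3 or more arrays and 2 or more unmarked arrays in each group. The brightest tested probe stood for a gene. Names came from RefSeq accessions on GRCm38.p6 (33767 of 56605 probes). The array design is on mm9, so coordinates are given only for sequences taken from RefSeq.

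The genotypes were compared in R 4.3.3 by limma 3.58.1 (lmFit, eBayes) with no covariate and two-sided p-values, adjusted by Benjamini-Hochberg over all 27916 features at a threshold of 0.05. The code was tested on simulated data. The number of arrays limits the precision. The members and lists were chosen with earlier results of these data known, and no p is adjusted over a list. From each list up to 4 genes with the smallest unadjusted p and fixed partners of a member are named, and for the 3 members with the largest SD over the arrays the 3 named features with the highest r. Some genes that this rule names are not reported here. Replicate numbers follow the order of deposit and pair no samples. Alternatives covered background correction, normalization, filters, choice of probe, blocks, weights, the variance model, the series table and each array left out. The planned normexp correction used median spot signals, since the files read here hold no mean signal. Probe and protein sequences were not used here.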

Additional observations from a re-analysis of the deposited data

How the results depend on the processing

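No regenerative gene was called under any alternative that tested it (0 in each, with 6 or 7 of the 8 genes tested), and the lowest adjusted p was 0.0923, for Clu with the slide column as a block. Signs changed in 9 of 110 values. Clu was -0.08 without knockout replicate 2. Anxa3 was 0.04 with normexp, 0.04 without knockout replicate 1 and 0.03 without wildtype replicate 2. Sprr1a was -0.17 with the slide column as a block and -0.1 without knockout replicate 3. Itga2 was 0.19 with that block and 0.07 without knockout replicate 3. Ly6a was -0.04 with at least 1 unmarked array per group, an alternative chosen after seeing the data. Over all alternatives the log2 change ranged from -0.08 to 1.12 for Clu (0.78 without wildtype replicate 3), 0.16 to 0.7 for Plaur, -0.17 to 0.63 for Sprr1a, -0.38 to 0.19 for Itga2, -0.2 to -0.05 for Anxa1 and -0.06 to 0.04 for Anxa3.

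Over all features 58 were called. The count was 100 with normexp, 35 without the filter on dim probes, 237 with the slide column as a block, 105 with array weights and 106 with trend and robust variance. With 1 array left out it ranged from 22 to 116. The other alternatives gave 54 to 69. The signal of Spp1, near background, allows no measured fold, and the cause of the changes was not tested.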
